A study of Coturnix japonica with 16 samples.

Results

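Liver transcripts of Japanese quail (Coturnix japonica) given a low oral dose of ethinylestradiol, 0.5 mg per kg of body weight, were compared with those of quail given the solvent alone. The 5 birds at 0.5 mg/kg and the 6 solvent birds were chosen by their dose labels and make up 11 of the 16 birds sequenced. The other 5 birds received 5 mg/kg. All birds were 12 weeks old, had 8 hours of light a day, were fasted for 16 hours before dosing, and were gavaged into the crop with 4 mL/kg, which for solvent birds was corn oil. RNA came from the left lobe of the liver, and the sources used here do not give strain, sex or the time from dosing to sampling.

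Ethinylestradiol is a synthetic estrogen that binds the estrogen receptors, which act as transcription factors. In laying birds the liver answers estrogen by making yolk proteins and lipoproteins. The liver of a fasted bird also runs a separate programme, in which cyclic AMP and falling insulin switch on glucose production and fat burning and switch off glycogen and fat storage. Both programmes are read below.

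Library totals were 24020961 to 38156083 counts in solvent birds and 15172994 to 30106081 counts at 0.5 mg/kg. These ranges overlapped, but dosed replicates 1, 2 and 4 lay below every solvent bird. Every dosed bird had fewer genes with a count, at 15642 to 16387, than any solvent bird, at 16467 to 17219. The part of depth in the results below was not tested. Hepatocyte markers summed to 82460 to 171468 counts-per-million units (CPM) in solvent birds and 121478 to 210538 CPM in dosed birds, with solvent replicate 1 lowest. In whole liver, fewer cells of a type and less RNA per cell cannot be told apart. Solvent replicate 1 stood apart from the rest: it lay at -82.8 on the first principal component, which held 24.3% of the variance, and the other 10 birds lay between -0.03 and 21.2. Z-linked genes, which males hold in more copies than females, split the birds by number. Over 613 Z-linked genes the median deviation was 0.17 to 0.27 on the log2 scale in birds 1 to 3 of both groups and -0.28 to -0.23 in birds 4 to 6. Solvent held 3 birds of each class and 0.5 mg/kg held 3 and 2. The labels do not say what the numbers stand for.

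No gene passed the threshold at 0.5 mg/kg. In edgeR's quasi-likelihood test with Benjamini-Hochberg adjustment over 13748 genes, 0 had an adjusted p under 0.05 (0% called). An unadjusted p under 0.05 was reached by 1134 genes (8.25%), of which 527 were higher (3.83%) and 607 lower (4.42%). Among the genes with low p, the cyclic AMP-induced kinase SIK1 was 8.29-fold higher, the fasting-induced binding protein IGFBP1 5.58-fold and the growth regulator MYC 3.25-fold. The lipase inhibitor G0S2 and the glycogen-targeting subunits PPP1R3B and PPP1R3C were lower, at log2 fold changes of -5.85, -3.0 and -2.80. Bird by bird, 209 genes had groups that did not overlap (1.52%): in 124 every dosed bird lay above every solvent bird (0.902%) and in 85 below (0.618%). Of these, 23 of the higher and 22 of the lower genes differed by at least 2-fold. limma-voom called 0 genes, the 2 groups fitted alone called 6 (0.0448%), namely SIK1, SNRK, PLPP3, MTMR4, LMBR1L and LIMK1, and DESeq2 called 42 of the 6809 genes it gave an adjusted p (0.617%), 26 higher and 16 lower. Of those 42 genes, 33 had groups that did not overlap.

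**Figure D1:**
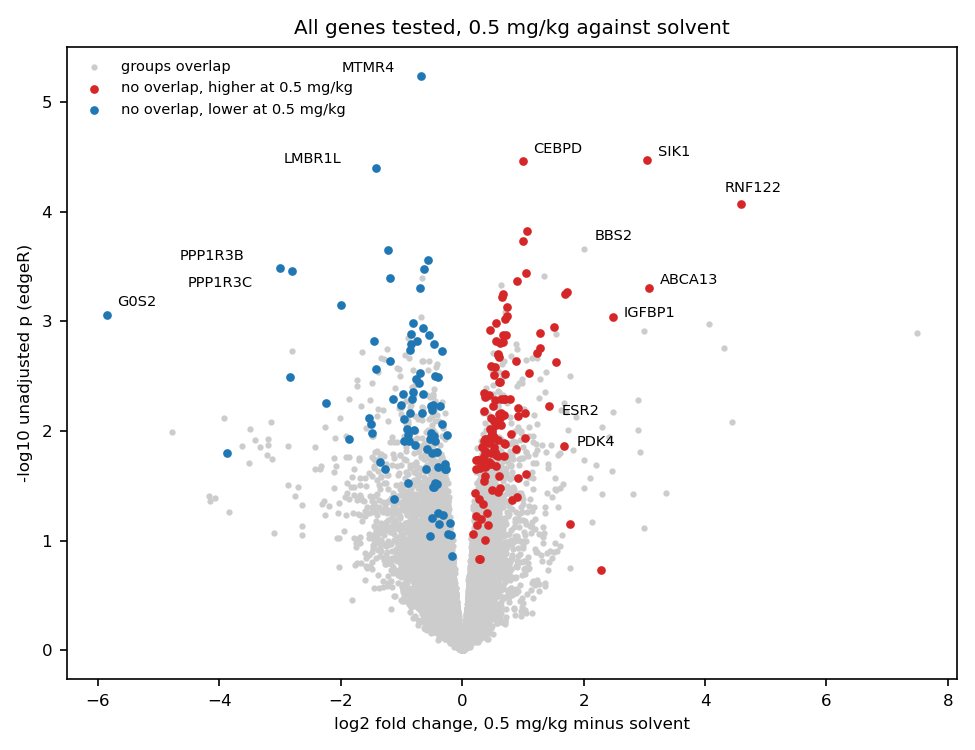
Each point is 1 of the 13748 genes tested, with the log2 fold change of 0.5 mg/kg minus solvent on the x axis and the -log10 unadjusted p of edgeR on the y axis. Coloured points are the 124 higher and 85 lower genes whose 5 dosed and 6 solvent birds did not overlap, and they lie along both arms, from MTMR4 and SIK1 at the top down to genes with small folds.

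SIK1 (NCBI gene 107323996) encodes a kinase induced by cyclic AMP that restrains the coactivators of CREB, the factor cyclic AMP acts through. Its levels in solvent replicates 1 to 6 were 14.5, 30.2, 7.47, 14.5, 6.28 and 13.3 CPM, and in dosed replicates 1 to 5 they were 176, 173, 117, 33.6 and 96.9 CPM. Every dosed bird lay above every solvent bird, although dosed replicate 4 came within a few CPM of solvent replicate 2. The means were 119 ± 59.1 CPM (SD, n = 5) and 14.4 ± 8.53 CPM (n = 6), a log2 fold change of 3.05 (SE 0.54) with an adjusted p of 0.136 in edgeR. The 2 groups fitted alone gave an adjusted p of 0.0462, DESeq2 gave 3.1e-06 and limma-voom gave 0.155. At 5 mg/kg the mean level was 58.3 ± 46.2 CPM.

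IGFBP1 (107309795) encodes a secreted carrier of insulin-like growth factors, repressed by insulin in mammals. Solvent birds held 17.1, 20.9, 6.48, 12, 4.5 and 64 CPM and dosed birds 92.9, 97.6, 67.7, 113 and 209 CPM. The groups did not overlap, but solvent replicate 6 reached almost the level of dosed replicate 3. The log2 fold change was 2.48 (SE 0.62, adjusted p 0.379 in edgeR), and it was 2.16 to 3.24 when 1 bird was left out. DESeq2 gave an adjusted p of 0.00841, the 2 groups fitted alone in edgeR gave 0.189 and limma-voom gave 0.318. IRS2, an insulin receptor substrate, was at 39.8 ± 11.5 against 25.7 ± 2.9 CPM, with dosed replicate 3 inside the solvent range.

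PDK4, PPARGC1A, CREB3L3, PCK1, ANGPTL4 and GYS2 belong to the same pathways and were picked out after their values were seen. PDK4, a kinase that blocks pyruvate dehydrogenase and so spares glucose, held 59.6, 230, 55.1, 52.8, 87.2 and 165 CPM in solvent birds and 248, 475, 352, 281 and 374 CPM in dosed birds. Solvent replicates 2 and 6 were the highest solvent birds, and all 5 dosed birds lay above them. CREB3L3, a liver transcription factor of the fasting response, was at 116 ± 13 against 62.6 ± 25.7 CPM, also without overlap. PPARGC1A, a coactivator of glucose production, held 9.88 to 16.2 CPM in dosed birds, and in solvent birds 12.6 CPM in replicate 2, 6.49 CPM in replicate 6 and 1.22 to 2.63 CPM in the other 4. Its groups therefore overlapped through solvent replicate 2 alone. Unadjusted p was under 0.05 for these 3 genes in edgeR, with adjusted p of 0.532, 0.536 and 0.587.

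PCK1, the rate-limiting enzyme of glucose production, had means of 94.8 ± 37.5 against 98.5 ± 203 CPM (log2 fold change -0.06, SE 1.49, adjusted p 0.996). Solvent birds ran from 0.692 CPM in replicate 1 to 511 CPM in replicate 2, while dosed birds lay between 52.7 and 135 CPM. The SD of log2 CPM was 3.64 in solvent and 0.61 in dosed birds. All dosed birds lay inside the solvent range.

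PPP1R3B (107313499) and PPP1R3C (107315941) encode subunits that bring protein phosphatase 1 to glycogen, where it activates glycogen synthase. PPP1R3B held 52.6, 67.8, 174, 98, 170 and 22.7 CPM in solvent birds and 14.5, 11.3, 7.74, 15.2 and 12.1 CPM in dosed birds. PPP1R3C held 48.4, 33.8, 221, 116, 134 and 29.3 CPM in solvent and 10.5, 14, 9.69, 22.6 and 12.8 CPM in dosed birds. In both genes solvent replicates 3, 4 and 5 were high, solvent replicate 6 was lowest, and no dosed bird reached a solvent bird. The log2 fold changes were -3.0 (SE 0.66) and -2.80 (SE 0.62), each with an adjusted p of 0.325 in edgeR and of 0.000226 and 0.00034 in DESeq2. For PPP1R3B and PPP1R3C the 2 groups fitted alone in edgeR gave adjusted p of 0.0583 and 0.0935, and limma-voom gave 0.447 for each. GYS2, liver glycogen synthase itself, went the other way, at 121 ± 14.7 against 75 ± 18.7 CPM without overlap (adjusted p 0.529).

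G0S2 (107324933), an inhibitor of the triacylglycerol lipase ATGL, had the lowest log2 fold change of the named genes, -5.85 (SE 1.44, adjusted p 0.379 in edgeR and 0.000226 in DESeq2). For G0S2 the adjusted p was 0.119 with the 2 groups alone in edgeR and 0.732 with limma-voom. Solvent birds held 19.4, 4.89, 373, 128, 299 and 4.85 CPM and dosed birds 1.79, 3.46, 2.35, 2.61 and 1.82 CPM. The dosed birds were uniform, while solvent replicates 2 and 6 lay only just above them, so the solvent mean rests mainly on replicates 3, 4 and 5. ANGPTL4, a secreted inhibitor of lipoprotein lipase, followed the same birds, with 192, 72.5 and 246 CPM in solvent replicates 3, 4 and 5 and 23.2, 10.2 and 5.16 CPM in replicates 1, 2 and 6. Dosed birds held 4.56 to 15.5 CPM of ANGPTL4, and the groups overlapped (log2 fold change -3.15, SE 1.05, adjusted p 0.492).

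**Figure D2:**
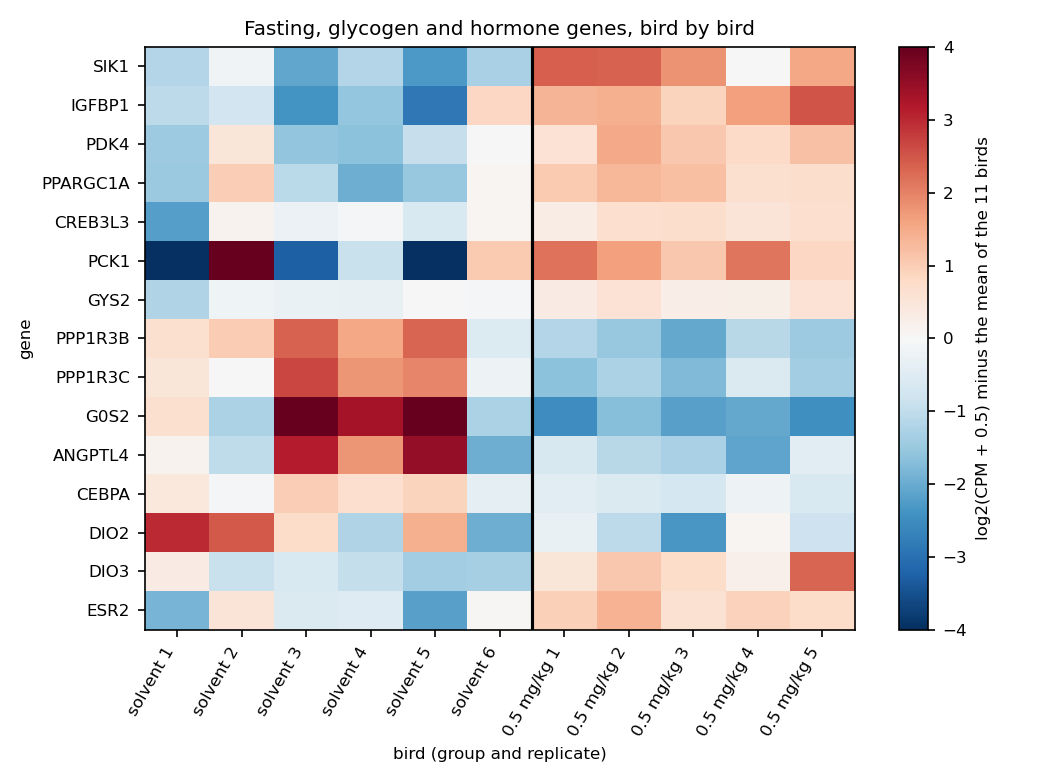
Rows are 15 genes of fasting, glycogen storage and hormone action and columns are the 6 solvent and 5 dosed birds, coloured by log2(CPM + 0.5) minus the mean of the 11 birds. Solvent replicates 3, 4 and 5 carry the highest G0S2, PPP1R3B, PPP1R3C and ANGPTL4. Solvent replicates 2 and 6 lie nearest the dosed birds in G0S2, PPP1R3C and ANGPTL4, but in PPP1R3B only replicate 6 does. All dosed birds are low in G0S2, PPP1R3B and PPP1R3C, while SIK1 and DIO2 vary among them. Most rows were chosen for a low p or after their values were seen.

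The list of cyclic AMP, fasting and gluconeogenesis genes was read as a whole. Of 37 genes 29 were tested, 20 above 0 and 9 below, with a median log2 fold change of 0.31 against -0.02 over all genes, of which 46.9% lay above 0. Over all genes 0 members passed, and at an unadjusted p under 0.05 there were 7 higher and 1 lower, 27.6% of the list against 8.25% of all genes. The 7 were SIK1, IGFBP1, IRS2, PDK4, CREB3L3, PDE4B and PPARGC1A, and the lower one was ANGPTL4. The mean deviation of the list in each bird was 0.19 to 0.49 in dosed birds and 0.25 in solvent replicate 2, with the other 5 solvent birds at -0.56 to -0.13. The list median was 0.21 within birds 1 to 3, 0.47 within birds 4 to 6, and 0.25 without solvent replicate 1. Members were chosen with earlier results of these data known.

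**Figure D3:**
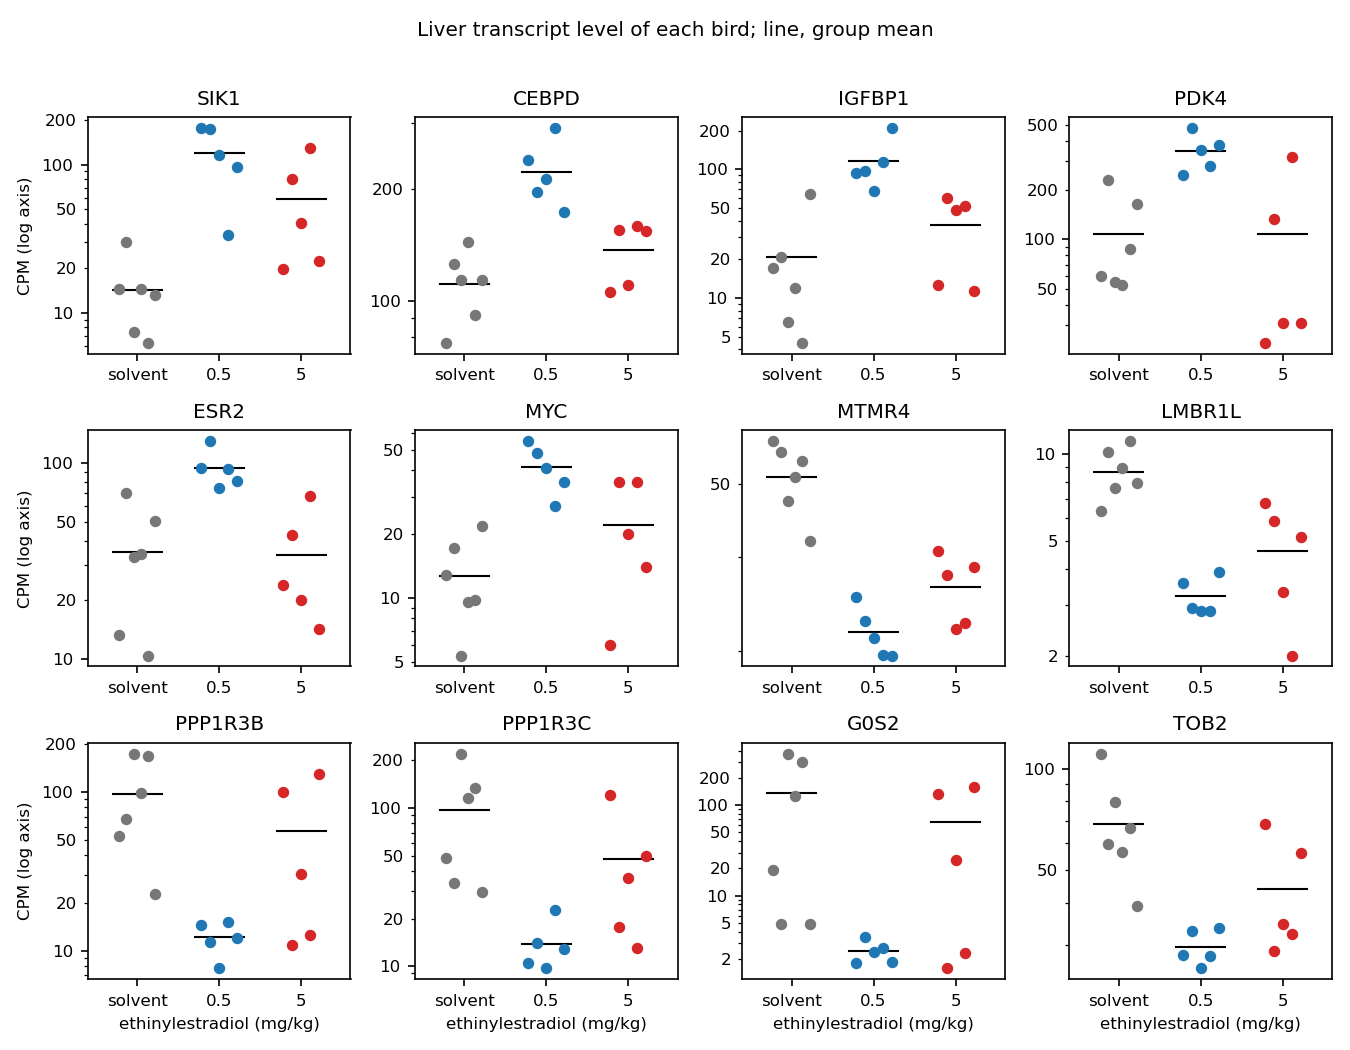
Each point is 1 bird, with its level in CPM on a log axis, for 12 genes in solvent, 0.5 mg/kg and 5 mg/kg birds, and the line is the group mean. In SIK1, CEBPD, IGFBP1, PDK4, ESR2 and MYC all 5 birds at 0.5 mg/kg lie above all 6 solvent birds, and in MTMR4, LMBR1L, PPP1R3B, PPP1R3C, G0S2 and TOB2 below them.

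MTMR4 (107322630), a phosphatase that removes phosphate from phosphoinositides on endosomes, had the lowest p of all genes. Its levels were 57.1, 55.2, 47.5, 51.1, 53.7 and 42 CPM in solvent birds and 35.4, 32.9, 31.3, 29.6 and 29.6 CPM in dosed birds. Both groups were tight, and the highest dosed bird lay below the lowest solvent bird. The log2 fold change was -0.69 (SE 0.10), with an adjusted p of 0.0792 in edgeR and 0.101 with limma-voom. The adjusted p was 0.0462 with the 2 groups alone in edgeR and 8.61e-07 in DESeq2. With 1 bird left out in edgeR it ran from 0.0274, without solvent replicate 6, to 0.293, and 1 of 11 such fits passed. Of 31 tested myotubularins and endosomal phosphoinositide genes, MTMR4 included, 19 lay above 0, and 3 were higher and 1, MTMR4, lower at an unadjusted p under 0.05. That was 12.9% of the list, against 8.25% of all genes, and the list median was 0.05.

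LMBR1L, which encodes a multipass membrane protein, was lower too. It held 6.34 to 11.1 CPM in solvent birds (median 8.44) and 3.57, 2.92, 2.87, 2.86 and 3.91 CPM in dosed birds, a log2 fold change of -1.43 (SE 0.26, adjusted p 0.136 in edgeR and 0.0278 with the 2 groups alone). TOB2, an antiproliferative adaptor of mRNA deadenylation, was at 29.6 ± 3.54 against 68.6 ± 24.5 CPM. LIMK1, the kinase that inactivates the actin-severing protein cofilin, was at 15.6 ± 0.861 against 30.6 ± 5.4 CPM and had an adjusted p of 0.0278 with the 2 groups alone but 0.456 in the fit of 3 groups. USP2, a deubiquitinating enzyme, and FA2H, which hydroxylates fatty acids, were at log2 fold changes of -1.19 and -0.70. PTPN12, a tyrosine phosphatase, SMAD6, an inhibitor of bone morphogenetic protein signalling, and PPP1R10, a nuclear regulator of protein phosphatase 1, were at -0.62, -0.65 and -0.75. MMS19, a factor of iron-sulfur protein assembly, was at -0.54, CRYZL1 at -0.84 and YDJC at -0.89. Among these 11 genes the groups overlapped in YDJC alone.

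CEBPD (107310142), a transcription factor of the acute phase response, was higher. It held 77.2, 125, 114, 144, 91.7 and 114 CPM in solvent birds and 240, 196, 213, 291 and 174 CPM in dosed birds. The lowest dosed bird lay above the highest solvent bird, and the log2 fold change was 1.0 (SE 0.18), with an adjusted p of 0.136 in edgeR and 0.000176 in DESeq2. The 2 groups fitted alone in edgeR gave an adjusted p of 0.0895, and limma-voom gave 0.155. Within birds 1 to 3 the log2 fold change was 1.03 and within birds 4 to 6 it was 0.99. At 5 mg/kg the mean was 137 ± 26.1 CPM, and the difference of 5 mg/kg minus 0.5 mg/kg was -0.70 with an adjusted p of 0.471.

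MYC, the growth-promoting transcription factor, held 5.34 to 21.7 CPM in solvent birds (median 11.3) and 54.9, 48.3, 40.9, 27.1 and 35.3 CPM in dosed birds, a log2 fold change of 1.70 (SE 0.40). LRIG1, which restrains the epidermal growth factor receptor, was at 50.9 ± 7.46 against 15.3 ± 8.04 CPM. ABCA13, a transporter of the lipid-carrying ABC family, was at 49.9 ± 19.8 against 5.91 ± 4.43 CPM, with a log2 fold change of 3.08 (SE 0.71). SNRK, a kinase related to the energy sensor AMPK, held 36.1 to 42.3 CPM in dosed and 22 to 28.4 CPM in solvent birds, and had an adjusted p of 0.0382 with the 2 groups alone. PLPP3, a lipid phosphate phosphatase, was at 101 ± 17.5 against 54.9 ± 6.3 CPM, and passed with the 2 groups alone (adjusted p 0.0462). In these 5 genes the groups did not overlap, and edgeR's adjusted p in the fit of 3 groups was 0.326 for the first 4 and 0.379 for PLPP3.

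DHRS3, which reduces retinaldehyde in vitamin A metabolism, was at 173 ± 8.32 against 92.1 ± 24.7 CPM, and its 5 dosed birds lay between 161 and 183 CPM. STRN3, a scaffold of protein phosphatase 2A, was at 73.8 ± 12.9 against 46.7 ± 6.12 CPM. EEPD1, a DNA repair nuclease, was at 45.5 ± 5.15 against 21.9 ± 7.48 CPM, and PRR5, a subunit of mTOR complex 2, at 5.82 ± 1.01 against 2.9 ± 0.624 CPM. WWP1, a ubiquitin ligase of the NEDD4 family, overlapped between groups, at 29.2 ± 4.63 against 18.7 ± 2.75 CPM.

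RNF122, a membrane-bound ubiquitin ligase, had the highest fold of the named genes, 24.1-fold, but from a very low level. Solvent birds held 0.0692 to 0.199 CPM and dosed birds 7.72, 0.272, 0.913, 2.66 and 3.6 CPM. The groups did not overlap, but dosed replicate 2 lay close to the solvent birds, and the SD of log2 CPM was 1.76 in dosed against 0.43 in solvent birds. BBS2, part of the BBSome, which moves proteins into and out of cilia, was at 17.1, 31, 31.1, 7.82 and 30 CPM in dosed birds, and SBNO2, a coregulator of transcription, at 56.4, 62.1, 53.5, 25.4 and 96.3 CPM. In both genes dosed replicate 4 was lowest and lay inside the solvent range of 2.91 to 8.47 CPM for BBS2 and 17.9 to 28.7 CPM for SBNO2. The means at 5 mg/kg were 48 ± 37.5 and 81.2 ± 41.1 CPM, and 5 mg/kg minus 0.5 mg/kg was 1.04 for BBS2 and 0.47 for SBNO2 on the log2 scale, with adjusted p of 0.647 and 0.798.

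The estrogen receptors differed from each other in their values. ESR2 held 13.1, 69.7, 32.8, 34.1, 10.3 and 50.6 CPM in solvent birds and 94.2, 129, 74.3, 92.6 and 81 CPM in dosed birds. All dosed birds lay above all solvent birds, and the log2 fold change was 1.42 (SE 0.45, adjusted p 0.473). It was 1.36 within birds 1 to 3 and 1.45 within birds 4 to 6. At 5 mg/kg ESR2 was at 33.7 ± 21.8 CPM, and 5 mg/kg minus 0.5 mg/kg was -1.49 (SE 0.48) with an adjusted p of 0.55. ESR1 was at 67.9 ± 10.2 against 51.2 ± 18.5 CPM with overlapping groups (0.41, SE 0.25, adjusted p 0.687). Whether the receptors differ in response was not tested.

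Of the 32 genes in the yolk and estrogen list 23 were tested, 13 above 0 and 10 below, with a median of 0.16 and 3 higher and 0 lower at an unadjusted p under 0.05 (3 of 23, against 8.25% of all genes in either direction). These were ESR2, NCOA1, a coactivator of steroid receptors, and LPL, lipoprotein lipase. NCOA1 was at 37.8 ± 2.61 against 29.7 ± 2.82 CPM without overlap. APOB, the protein of very low density lipoprotein and a yolk precursor, held 2958 to 3951 CPM in dosed and 2183 to 3498 CPM in solvent birds, at a log2 fold change of 0.37 (SE 0.21, adjusted p 0.676). The progesterone receptor PGR was at 0.986 ± 0.618 against 1.42 ± 0.31 CPM. GREB1, estrogen-induced in mammals, was at 1.95 ± 0.402 against 2.38 ± 0.391 CPM and STC2, stanniocalcin 2, at 58.5 ± 21.4 against 68.9 ± 36.8 CPM. The transferrin gene TF, looked at with HPX after their values were seen, had 1 bird apart, with 56944 CPM in dosed replicate 3 against 7127 to 12565 CPM in the other 4 dosed birds and 7102 to 14376 CPM in solvent. HPX, hemopexin, which carries heme in plasma, was highest in that same bird, at 29931 CPM, and lay at 2743 to 5436 CPM in the other 4 dosed birds. The mean deviation of the list was 0.06 to 0.25 in dosed and -0.21 to -0.03 in solvent birds, so all 5 dosed birds lay above every solvent bird, but the median of the list was -0.04 within birds 1 to 3 and 0.20 within birds 4 to 6. Genes named VTG1, VTG2, VTG3 and APOV1 were not analysed here.

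Unnamed genes LOC107317565 and LOC107315745 were noticed for groups that did not overlap. LOC107317565 held 0.114 to 1.33 CPM in solvent birds and 1.79, 2.99, 1.48, 2.06 and 4.97 CPM at 0.5 mg/kg, while 5 mg/kg birds held 7415, 25.5, 4.82, 4.01 and 2.09 CPM. LOC107315745 held 2.95 to 76 CPM in solvent and 207, 115, 93, 234 and 78.8 CPM at 0.5 mg/kg. Their adjusted p was 0.748 and 0.642 in edgeR.

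Acute phase, coagulation and complement genes lay above 0 in 31 of 35 tested, with a median of 0.26, and 5 were higher and 0 lower at an unadjusted p under 0.05 (14.3% of the list). Among all genes 46.9% lay above 0 and 8.25% reached that p. Of the hepatocyte markers 8 of 10 lay above 0, with a median of 0.22, or 0.12 without solvent replicate 1. The hepatocyte and acute phase lists share members, FGB, SERPINC1 and F2 among them, so their values are not independent. CEBPD, C5, C8A and STAT3 were among the 5 higher acute phase, coagulation and complement genes. C5, the complement component whose cleavage starts the membrane attack complex, held 294 to 513 CPM in dosed and 175 to 352 CPM in solvent birds. Dosed replicate 4 was the lowest dosed bird for C5 and had the lowest list deviation of the dosed birds, -0.31 against 0.15 to 0.40 in the others. The groups overlapped, with solvent birds at -0.47 to 0.26, and solvent replicate 4, the highest of them, lay above dosed replicate 2. Solvent replicate 1 was lowest of all, at -0.47, and was also lowest in summed hepatocyte markers, whose part in the result was not tested. Without it the list median was 0.21.

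Cholesterol synthesis and uptake genes were above 0 in 20 of 25 cases (median 0.23), with 3 higher and 0 lower at an unadjusted p under 0.05 (12% of the list, against 8.25% of all genes): NPC1, HMGCS1 and INSIG1. The mean deviation of the cholesterol list was -0.32 in dosed replicate 2 and 0.11 to 0.42 in the other dosed birds. Solvent birds lay at -0.61 to 0.32, so the groups overlapped. NPC1, which exports cholesterol from lysosomes, held 102 to 118 CPM in dosed and 55.4 to 97.1 CPM in solvent birds without overlap (log2 fold change 0.60, SE 0.16, adjusted p 0.379). HMGCS1, an early enzyme of cholesterol synthesis on the Z chromosome, held 1354 to 2163 CPM in dosed birds and 325 to 890 CPM in solvent birds apart from replicate 2, at 1667 CPM. Fatty acid synthesis had 16 of 21 above 0 and fatty acid oxidation 19 of 24, with medians of 0.18 and 0.11. Without solvent replicate 1 these medians were 0.07 and 0.03, and without dosed replicate 1 they were 0.03 and 0.05. 1 gene of each list was higher at an unadjusted p under 0.05 (4.76% and 4.17%), ACSL5, which activates fatty acids, and PPARA, the nuclear receptor that drives their oxidation. PPARA was at 253 ± 32.4 against 179 ± 32.7 CPM, with overlapping groups. Bile acid genes lay above 0 in 12 of 14 cases (median 0.21), while 46.9% of all genes lay above 0. At an unadjusted p under 0.05 there were 1 higher and 0 lower (7.14% of the list, against 8.25% of all genes). All 5 dosed birds had a higher mean deviation than every solvent bird, 0.03 to 0.25 against -0.16 to 0.02. The same held for the yolk and estrogen list and for the list of ubiquitin ligases. The ubiquitin ligase list was drawn up around RNF122 and also holds WWP1, both already among the higher genes with the lowest p. Its separation is therefore no independent result, and the list without these genes was not scored. NR1H4, the bile acid receptor, was at 71.3 ± 24.3 against 46.8 ± 9.04 CPM, with overlapping groups (adjusted p 0.529 in edgeR). Fatty acid synthesis had a median of 0.35 within birds 4 to 6 and -0.04 within birds 1 to 3. Lipoprotein genes lay above 0 in 14 of 23 cases (median 0.07), at -0.11 and 0.33 in the classes 1 to 3 and 4 to 6.

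Genes of hepatocyte identity lay on both sides of 0. CEBPA, a factor of energy storage in hepatocytes, held 152, 139, 127, 180 and 134 CPM in dosed birds and 159 to 410 CPM in solvent birds, overlapping through solvent replicate 6 (log2 fold change -1.0, SE 0.32, adjusted p 0.473). TDO2, the liver enzyme that degrades tryptophan, held 1258 to 1924 CPM in dosed and 689 to 1349 CPM in solvent birds, with overlapping groups (0.54, SE 0.22, adjusted p 0.575). The list had 13 of 18 members above 0, with 2 higher and 2 lower at an unadjusted p under 0.05 (22.2% of the list, against 8.25% of all genes). Its median was 0.17, or 0.08 without solvent replicate 1.

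For the lists in this paragraph the share of genes at an unadjusted p under 0.05 ran from 0% to 31.2%, against 8.25% of all genes. Some genes at that p are in several lists, so the shares are not separate results. IGFBP1 and IRS2 are in both the fasting and the insulin-like growth factor lists. NCOA1 is in the yolk and nuclear receptor lists, CRY1 in the glucocorticoid and clock lists, and KLF9 in the glucocorticoid and thyroid lists. Glucocorticoid-responsive genes had 3 higher and 2 lower of 16 (31.2%), and immediate early genes 3 and 3 of 27 (22.2%). The circadian clock had 4 higher and 1 lower of 21 (23.8%), and the insulin-like growth factor axis 3 and 3 of 26 (23.1%). Nuclear receptors and coregulators had 4 and 0 of 31 (12.9%), and the ubiquitin ligases 2 and 0 of 23 (8.70%). Steroid and xenobiotic genes had 1 higher and 0 lower of 10 (10%), iron and calcium genes 1 and 1 of 18 (11.1%), and oxidative stress genes 0 and 0 of 21. The medians of these lists lay between -0.23, for immediate early genes, and 0.18, for steroid and xenobiotic genes, which were -0.05 and 0.10 without solvent replicate 1.

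Of 9 thyroid hormone genes tested, 1 was higher and 2 were lower at an unadjusted p under 0.05. That was 33.3% of the list, against 8.25% of all genes, and the list median was 0.02. DIO3 was the higher gene, and DIO2 and KLF9 were the lower ones. The 2 enzymes lay on opposite sides. DIO3, which inactivates thyroid hormone, held 50.8, 75.7, 60.2, 41.4 and 181 CPM in dosed birds and 13.4 to 45.1 CPM in solvent birds, overlapping through solvent replicate 1 and dosed replicate 4, with a log2 fold change of 1.88 (SE 0.62, adjusted p 0.485). DIO2, which activates it, held 7.22, 4.14, 1.39, 9.43 and 4.86 CPM in dosed birds and 74.9, 51.8, 15.3, 3.61, 24.8 and 1.95 CPM in solvent birds (-2.42, SE 0.88, adjusted p 0.532). For DIO2 the log2 fold change was -3.50 within birds 1 to 3 and -0.52 within birds 4 to 6, and for DIO3 it was 1.09 and 2.86. KLF9, induced by thyroid hormone and glucocorticoids, was at 13.2 ± 4.61 against 27.2 ± 12.8 CPM. The interaction of dose with number class passed for 0 of 13384 genes in edgeR, with 471 at an unadjusted p under 0.05.

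**Figure D4:**
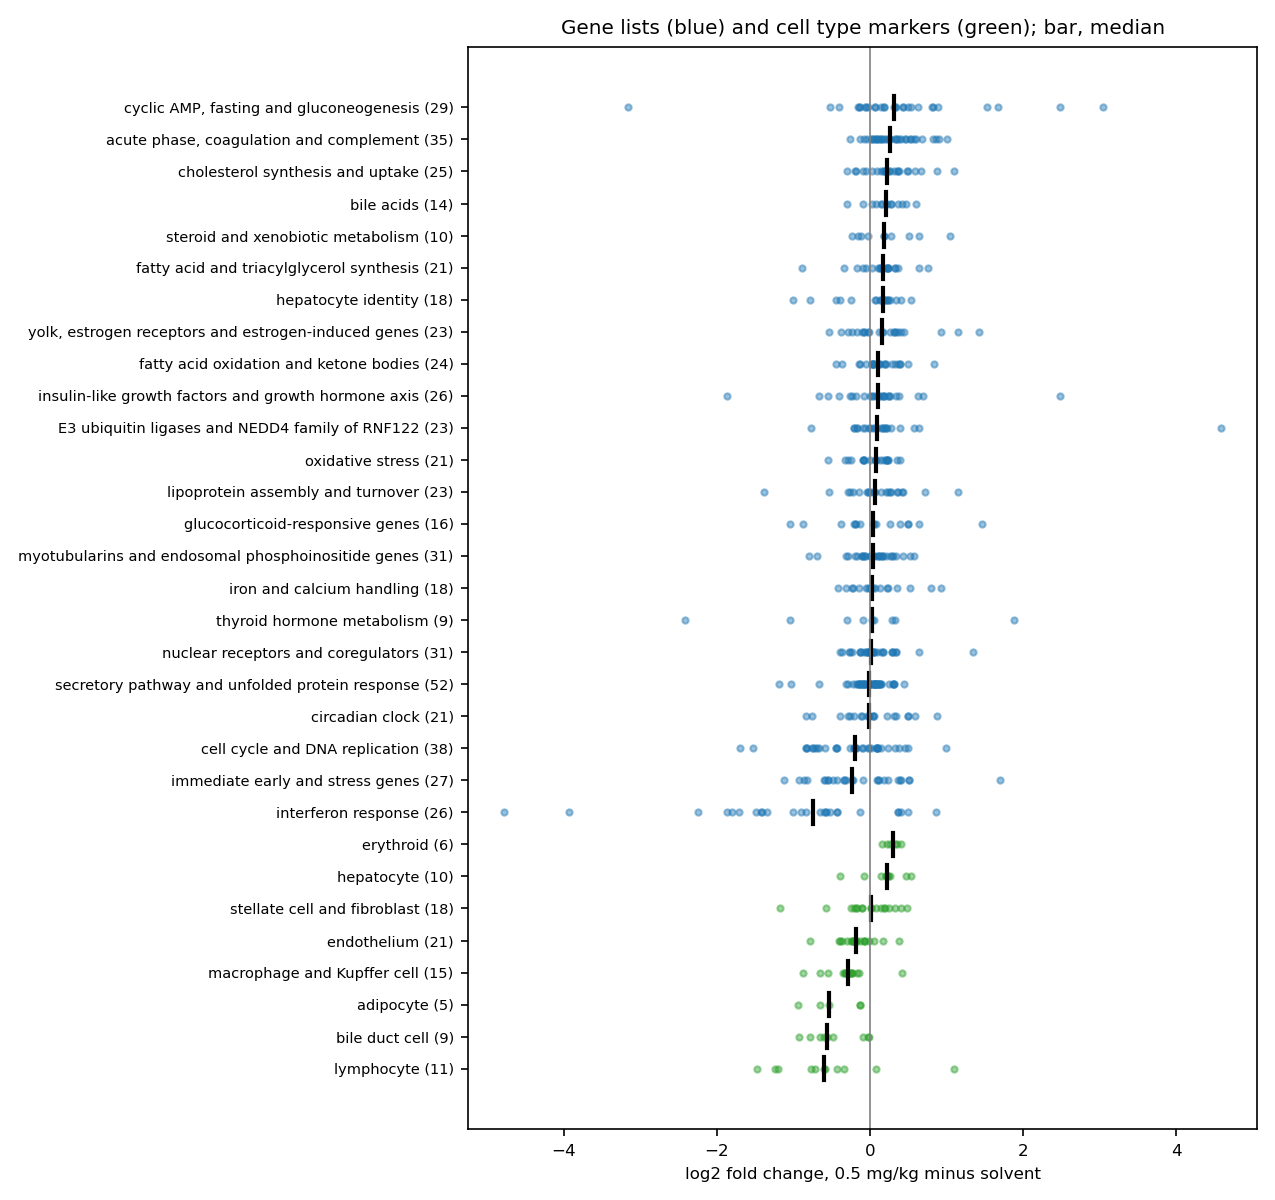
Each point is a tested member of a list, placed by its log2 fold change of 0.5 mg/kg minus solvent on the x axis, with the number of tested genes in brackets and the black bar at the median. The fasting and acute phase lists sit highest among pathways, at medians of 0.31 and 0.26, and the interferon list lowest, at -0.74.

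The interferon list had 21 of 26 members below 0, a median of -0.74 and 8 lower and 2 higher at an unadjusted p under 0.05 (38.5% of the list, against 8.25% of all genes). Solvent replicate 1 held 363 CPM of HELZ2 and 921 CPM of CMPK2, both induced by interferon, against 24.4 to 31.6 and 5.74 to 17.6 CPM in the other solvent birds. Without that bird the list median was 0.15. Cell cycle genes had 25 of 38 below 0 and a median of -0.19, which was 0.08 without solvent replicate 1. Secretory pathway and unfolded protein response genes were above 0 in 25 of 52 cases (median -0.01). At an unadjusted p under 0.05, 2 were higher and 3 lower (9.62% of the list, against 8.25% of all genes). The chaperone HSPA5, 1 of the lower ones, was at 733 ± 340 against 1668 ± 888 CPM with overlapping groups (adjusted p 0.529 in edgeR).

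Markers of other cell types lay mostly below 0. Macrophage and Kupffer cell markers had 14 of 15 below 0 (median -0.28), endothelial markers 18 of 21 (-0.18), lymphocyte markers 9 of 11 (-0.60) and bile duct markers 9 of 9 (-0.56). At an unadjusted p under 0.05 there were 2, 1, 0 and 2 lower genes, and 1 higher gene, the lymphocyte marker IL7R. These were 13.3%, 4.76%, 9.09% and 22.2% of the 4 lists, against 8.25% of all genes. Summed levels overlapped, at 495 to 1011 CPM in dosed and 686 to 1600 CPM in solvent birds for macrophages, and 182 to 253 against 203 to 280 CPM for endothelium. They were 24.0 to 66.6 against 18.2 to 119 CPM for lymphocytes and 187 to 216 against 192 to 491 CPM for bile duct cells. Solvent replicate 1 held the highest value for macrophages, lymphocytes and bile duct cells, and without it the medians were -0.09, 0.11 and -0.13, while that of endothelium was -0.19. Erythroid markers had 6 of 6 above 0 (median 0.30), at 148 to 789 CPM against 177 to 544 CPM. Their median was 0.13 without solvent replicate 1, and between 0.07 and 0.53 with any 1 bird of the 2 groups left out. Stellate cell markers were above 0 in 10 of 18 cases (median 0.02), and adipocyte markers below 0 in 5 of 5 (median -0.53). The adipocyte median was -1.36 within birds 1 to 3 and -0.02 within birds 4 to 6. Summed adipocyte levels overlapped, at 28.3 to 48.8 CPM in dosed and 29.7 to 49.7 CPM in solvent birds. The part of these cells in the results above was not tested. Exocrine pancreas markers had 0 genes tested and muscle markers 1.

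Over the 12034 genes whose mean reached 1 CPM in either group, the median SD of log2 CPM was 0.32 in solvent and 0.28 in dosed birds, and 0.27 in solvent birds without replicate 1. In 1950 of these genes the solvent SD was over 2 times the dosed SD, and in 732 the reverse held. Without solvent replicate 1 the counts were 1274 and 1415. G0S2 (2.86 against 0.38), ANGPTL4 (2.27 against 0.68), PPP1R3B (1.12 against 0.38) and ESR2 (1.08 against 0.30) spread more among solvent birds, and SIK1 (0.80 against 0.98) and RNF122 more among dosed birds. Whether these SDs differ was not tested.

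**Figure D5:**
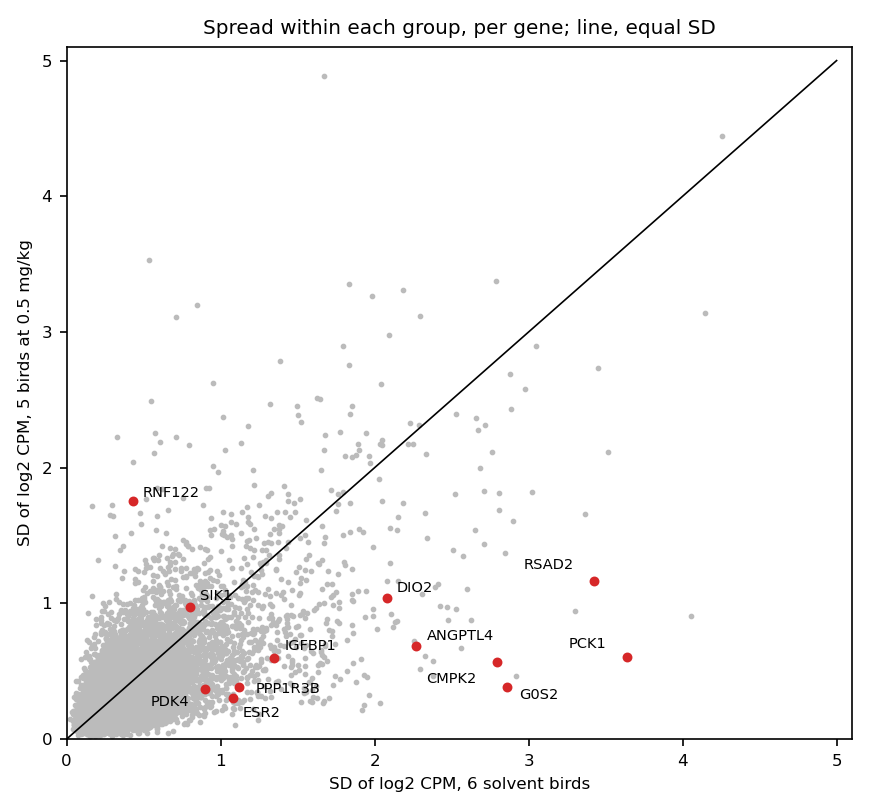
Each point is 1 of 12034 genes, with the SD of log2 CPM among the 6 solvent birds on the x axis and among the 5 dosed birds on the y axis, and the line marks equal SDs. PCK1, G0S2 and ANGPTL4 lie far to the right and low, at solvent SDs of 3.64, 2.86 and 2.27, as do RSAD2 and CMPK2, which were high in solvent replicate 1, at 1280 and 921 CPM.

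Side by side with 5 mg/kg, which shares the solvent birds, the fasting and storage genes were split among the birds of the higher dose. G0S2 held 134, 1.56, 24.8, 2.33 and 162 CPM in 5 mg/kg replicates 1 to 5, PPP1R3B held 99.7, 10.9, 30.3, 12.5 and 129 CPM, and PDK4 held 23.4, 133, 31, 317 and 30.7 CPM. Replicates 2 and 4 were thus low in both storage genes and high in PDK4, and replicates 1 and 5 the reverse. IGFBP1 was at 36.8 ± 23 CPM and MTMR4 at 36.5 ± 3.84 CPM. The test of 5 mg/kg minus 0.5 mg/kg passed for 0 of 13748 genes in edgeR (0%), with 997 at an unadjusted p under 0.05 (7.25%). The log2 differences were 4.76 for G0S2, 2.22 for PPP1R3B and -1.66 for IGFBP1, with adjusted p of 0.538, 0.538 and 0.621. For STC2 it was -1.63 (SE 0.35), with an adjusted p of 0.412.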

How the data were processed

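Per the submitters' processing notes, the authors made the deposited estimated counts with kallisto, which gave 47418 transcript rows. The sources used here do not give its version, transcriptome or build. Estimated counts were summed to 20308 NCBI gene numbers and rounded, and names came from the RefSeq gene table of Coturnix japonica 2.1, where 18900 matched. Promoter motifs were not analysed here. Counts of near-identical or overlapping genes are uncertain.

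Genes were kept by filterByExpr in edgeR 4.0.16 (R 4.3.3), minimum count 10 and total 15, which left 13748. Libraries were scaled by TMM, and a quasi-likelihood model of 3 groups was fitted to 16 libraries (13 residual degrees of freedom), tested on simulated data first. The simulated birds spread less than the real ones, whose common dispersion in edgeR was 0.126. The simulation therefore does not show which changes the fit could find here. limma 3.58.1 and DESeq2 1.42.0 were alternatives. P-values set the difference between groups against the spread between birds. Levels are CPM, and SDs of log2 CPM use a prior count of 2.

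The named genes were the 14 higher and 14 lower genes with a symbol, at least 1 CPM and the lowest p, the genes called with the 2 groups alone, up to 3 members per list with an unadjusted p under 0.05, and ESR1, ESR2, PGR, APOB, GREB1 and STC2. Others were named after their values were seen. Members and the 33 lists were chosen with earlier results of these data known. Some genes belong to several lists, so the lists are not independent of each other. A few genes stay in the fits and list counts but are not reported by name.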

Additional observations from a re-analysis of the deposited data

Results flagged for a closer look

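In groups of 5 or 6 birds, the bird farthest out was compared with the rest by Dixon's ratio, the gap to its nearest neighbour over the whole range, on the log2 CPM scale. Of 228 groups, made of 83 named genes and 31 lists in solvent and dosed birds, 16 had a bird beyond the critical value, where chance flags about 1 in 20 groups. Solvent replicate 1 was that bird in 9 of the 16.

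Solvent replicate 1 was high for HELZ2 (0.905), CMPK2 (0.78), IER5 (0.699), PTPN12 (0.661) and PPP1R10 (0.642). It was also high in the list deviations of the interferon response (0.925), bile duct cells (0.652) and lymphocytes (0.636), and low in nuclear receptors (0.649). Solvent replicate 5 was low for PRR5 (0.662), solvent replicate 2 was high in the insulin-like growth factor list (0.717), and solvent replicate 4 was low in the adipocyte list (0.7).

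Among dosed birds, replicate 4 was low for PRR5 (0.802), replicate 3 was low for WWP1 (0.722) and for ERRFI1 (0.836), and replicate 5 was high in the yolk and estrogen list (0.715).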

How the results depend on the processing

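The count of 0 genes past the threshold became 42 with DESeq2, 6 with the 2 groups alone and 1 with a stricter filter (MTMR4), and was 0 with limma-voom, RLE size factors, no filter, number class as a term and within either class. Leaving out 1 bird gave 0 to 1, the 1 being PGBD5 without solvent replicate 1, LOC107318775 without solvent replicate 2 and MTMR4 without solvent replicate 6. The replicate number as a block gave 0 genes with 3 groups and 0 with 2. Same-numbered birds shared their Z-linked class, and the labels do not say whether they shared anything else. Their deviations correlated at -0.06 to 0.09, and 1 of 5 dosed birds correlated best with the solvent bird of its number. The 1134 genes at an unadjusted p under 0.05 became 655 within birds 4 to 6 and 883 to 1283 when 1 bird was left out. They split into 527 higher and 607 lower, and with limma-voom into 538 higher and 421 lower. The 209 genes without overlap became 261 to 368 with 1 bird fewer, where groups separate more easily by construction. They numbered 368 when solvent replicate 2 was dropped and 348, 365, 317 and 316 when dosed replicates 1, 3, 4 and 5 were. They were 1526 within birds 1 to 3 and 3281 within 4 to 6, where 3 against 3 and 3 against 2 birds separate more easily by construction.

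Of 1823 log2 fold changes of the 83 named genes under alternatives, 1788 kept direction and side of the threshold and 31 came past it. Genes without an adjusted p in DESeq2, such as RNF122 and LMBR1L, were counted among the 1788 for that setting. STC2 was at 0.52 within birds 4 to 6 and at -0.48 to 0.034 with 1 bird left out, above 0 without solvent replicate 2. CMPK2 was at 0.41 within birds 4 to 6 and at -4.25 to 0.16 with 1 bird left out, above 0 without solvent replicate 1. Of 682 list medians, 670 moved by less than 1 SD between birds. That SD includes solvent replicate 1, and a median could change sign within it. The lymphocyte median went from -0.60 to 0.11 without that bird. The sign was kept in 12 of 22 settings for stellate cells, 14 for glucocorticoid-responsive genes, and 15 each for the clock and secretory lists. Depth limits genes such as RNF122, under 0.2 CPM in solvent birds.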

Other observations

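Some genes were noticed after their values were seen, SMAD1, CREBL2, DUSP16 and SLC6A6 among the genes DESeq2 called. SMAD1, an effector of bone morphogenetic protein signalling, was at 82.4 ± 27.7 CPM in dosed and 34 ± 7.51 CPM in solvent birds, while SMAD6, its inhibitor, was at 15.5 ± 1.5 against 24.4 ± 5.37 CPM. Neither gene's groups overlapped, and DESeq2's adjusted p was 0.0375 and 0.049. For SMAD6 the adjusted p was 0.379 in edgeR and 0.509 with limma-voom. No gene passed in either of those fits, so SMAD1, CREBL2, DUSP16 and SLC6A6 passed in neither. CREBL2, a CREB-like factor, was at 81.8 ± 11.8 against 33.7 ± 9.12 CPM and DUSP16, a phosphatase of stress-activated kinases, at 119 ± 54.7 against 50.6 ± 10.1 CPM, also without overlap. SLC6A6, the taurine transporter, held 141 to 410 CPM in dosed and 70.8 to 144 CPM in solvent birds, and its groups overlapped. PGBD5 held 4.73 CPM in solvent replicate 1, 1.25 to 1.49 CPM in the other 5 solvent birds and 3.22 to 5.12 CPM in dosed birds.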
